A study of Mus musculus with 20 samples.

Results

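The genes of the renin-angiotensin system were followed through 5 kinds of mouse kidney sample. The members were 9 genes chosen by symbol: Ren1, Akr1b7, Agt, Ace, Agtr1a, Agtr1b, Enpep, Mme and Atp6ap2. Of these, 8 had a row among the 34255 genes of the count table, and all 8 passed the filter on low counts in both statistical fits. Agtr1b had no row in the table used here and was not analysed.

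Renin, an aspartyl protease secreted by juxtaglomerular cells in the wall of the afferent arteriole where it meets the glomerulus, cuts angiotensinogen to angiotensin I. Angiotensin-converting enzyme turns angiotensin I into angiotensin II, which acts on type 1 receptors to constrict vessels, to reduce renin release and to promote sodium retention. Membrane peptidases such as aminopeptidase A and neprilysin then shorten these peptides, and the kidney holds all parts of the pathway, with renin in vessel walls and much of the angiotensinogen and peptidase in the proximal tubule.

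The kidneys came from healthy, untreated, young adult male C57BL6/OlaHsd mice of WT genotype, and no group carried a transgene or received a treatment. Glomeruli, arterioles, post-capillary venules and peritubular capillaries were cut from cortex cryosections by laser microdissection and compared with whole kidney sections, with 4 libraries in each of the 5 groups. A microdissected sample holds a vessel segment with its supporting cells and some of the tissue beside it, so it is not pure endothelium. Peritubular capillaries were chosen on lectin-stained slides and the other segments by their shape, and microdissected libraries were made from less RNA and with more PCR cycles than whole kidney libraries, a difference that cannot be told apart from the comparison with whole kidney. Biological replicates are numbered in the labels without a mouse being named, and p-values here rest on the spread among the 4 samples of each group. The study's methods describe collecting every kind of segment from each mouse, so libraries of different groups can come from the same mouse. The main fits treat all libraries as independent. Libraries are named by the number in the table (93, 96, 98 or 100), and values per library follow that order.

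Total counts ran from 4639090 to 12283098 per library, and 3 counts, the limit that a count of 0 allows, were worth 0.205 to 0.635 CPM (counts scaled to 1000000 per library, with the library total adjusted by the TMM method). Such limits and the intervals on counts given here cover counting error only. The defining markers fitted the labels for arterioles and glomeruli. Smooth muscle markers took 1.53 to 2.54% of counts in arterioles and 0.0264 to 0.0325% in whole kidney, and all 5 were called higher. Podocyte markers took 0.821 to 0.992% in glomeruli and 0.0189 to 0.0224% in whole kidney, again with 5 of 5 called higher. Endothelial markers took 0.0134 to 0.0206% in peritubular capillaries and 0.0200 to 0.0471% in venules, against 0.0144 to 0.0176% in whole kidney, with 0 of 5 called in either compartment. Proximal tubule markers took 6.17 to 8.14% of counts in peritubular capillaries and 2.16 to 2.68% in venules, against 3.93 to 4.28% in whole kidney. By mean CPM, Kap was the largest of these markers, at 28674 in whole kidney and 16985 in venules. Slc34a1 (4714 against 2801), Slc5a2 (595 against 208) and Slc5a12 (143 against 53.6) were higher in venules than in whole kidney. Lrp2, Cubn, Slc22a6, Slc7a13 and Aqp1 were lower there, as was Kap.

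Against whole kidney, a gene was called at an adjusted p (FDR, Benjamini-Hochberg over 13813 genes) under 0.05 where its log2 fold change was also above 1 or below -1. Of 32 member tests, 3 passed. Ren1 rose in glomeruli, where 1 of 8 members was called higher and 0 lower, while 1.59% of all genes tested were called higher and 1.47% lower. Ren1 and Agt fell in arterioles, where 0 of 8 members were called higher and 2 lower, against 5.78% and 5.50% of all genes. In peritubular capillaries and venules 0 members were called, where edgeR called 0.0869% and 0.203% of all genes higher and 0.00724% and 0.0217% lower. At an unadjusted p under 0.05 there were 2 members in each of these compartments, and DESeq2 called 1 in capillaries and 2 in venules. The median log2 fold change over the 8 members was -0.85 in arterioles, 1.24 in glomeruli, -0.0042 in capillaries and -0.91 in venules, where the median over all genes was 0.22, 0.26, 0.18 and 0.19. The plot of levels by library shows that the whole kidney libraries lay close together for each member, while arteriole and venule libraries were spread widely.

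**Figure D1:**
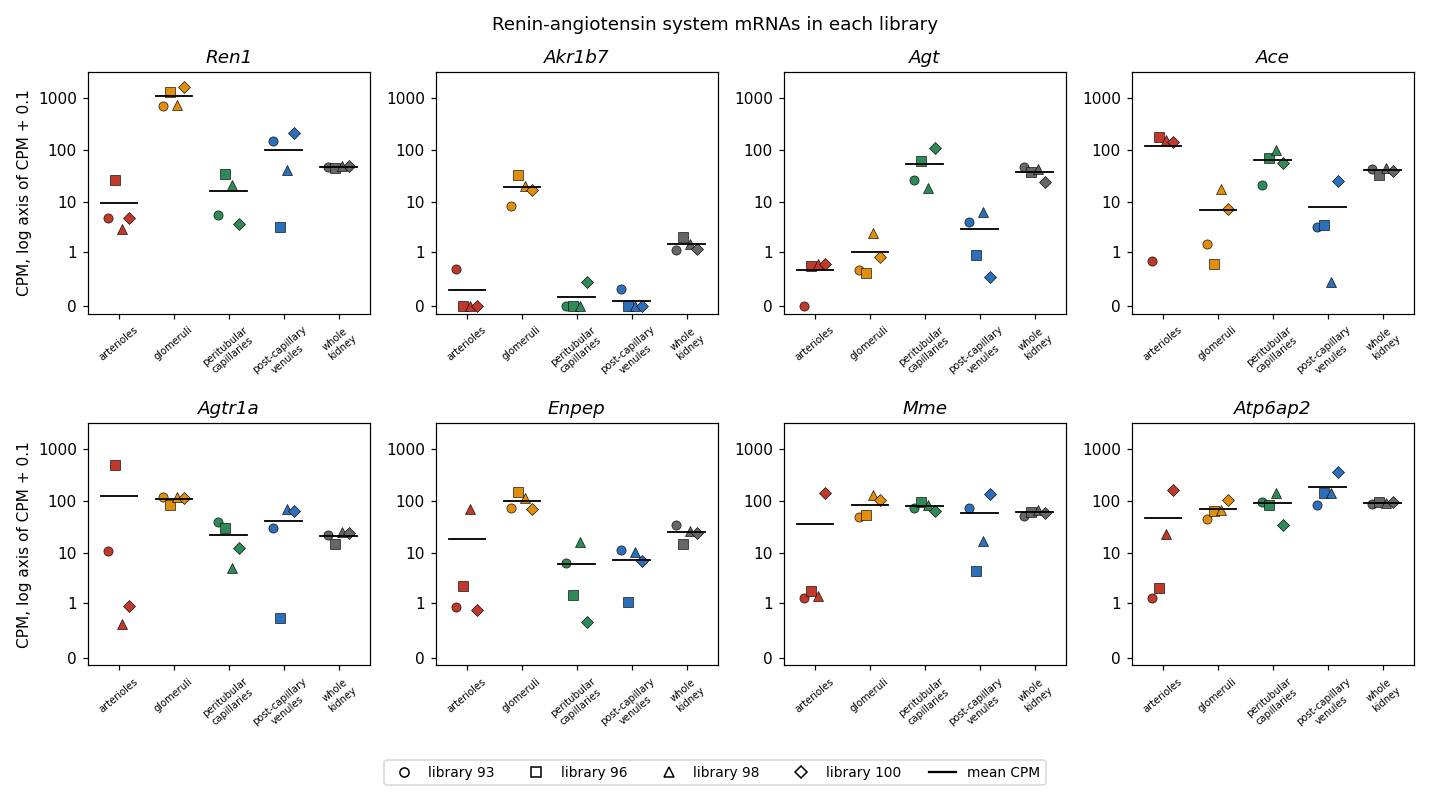
CPM of the 8 analysed genes in each of the 20 libraries, by group (log axis of CPM + 0.1, points are libraries and lines are mean CPM of 4 libraries). Ren1 lay between 691 and 1622 CPM in glomeruli, above every other library, and Akr1b7 between 8.17 and 33.5 CPM there, also above every other library.

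Renin itself, the enzyme that starts the cascade, is encoded by Ren1 (ENSMUSG00000070645) on chromosome 1 from base 133350510 to 133360325, forward strand, of build GRCm38. Ren1 stood at 691, 1314, 717 and 1622 CPM in glomeruli and at 47.0, 44.5, 49.5 and 49.1 CPM in whole kidney. The groups did not overlap, and the mean of 1086 ± 459 CPM was 22.9 times the 47.5 ± 2.29 CPM of whole kidney (SD, n = 4). The log2 fold change was 4.52 (SE 0.84, FDR 0.000737), and it passed the test without any 1 of the 20 libraries (FDR up to 0.00688). In samples of this kind, a different share of renin cells and a different amount of Ren1 mRNA per cell cannot be told apart.

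Arterioles held 4.87, 25.8, 2.90 and 4.78 CPM of Ren1. All 4 lay below every whole kidney library, and the mean of 9.59 ± 10.8 CPM was the lowest of the 5 groups (log2 fold change -2.30, SE 0.76, FDR 0.0448). This call against whole kidney was lost without arteriole 93, 98 or 100, glomerulus 100 or a single library of whole kidney (FDR up to 0.0938), and also with RLE size factors (FDR 0.0827), DESeq2 (0.103) or a fit of the 8 libraries compared (0.136). Venules split into 149, 40.2 and 207 CPM in libraries 93, 98 and 100 and 3.27 CPM in library 96. Their mean was 2.11 times that of whole kidney with an SD of 94.6 CPM, and they straddled whole kidney, with 2 libraries above and 2 below all 4 of its libraries (log2 fold change 1.08, SE 0.73, FDR 0.846). Peritubular capillaries held 5.45, 34.9, 20.7 and 3.71 CPM, all under whole kidney, without passing the test (-1.55, SE 0.74, FDR 0.382).

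Among the 16 microdissected libraries, each compartment was compared with the equal-weight mean of the other 3 on the log scale over 12179 genes, and a marker had FDR under 0.05, a positive fold change and at least 10 CPM in all 4 libraries. Ren1 was a glomerular marker (log2 fold change 5.45, SE 0.58, FDR 2.65e-08). It was 1 of 8 members to be one, where 1.48% of all genes were. In arterioles it was lower than the mean of the other 3 compartments, glomeruli among them (-3.65, SE 0.79, FDR 0.00149). In peritubular capillaries it was also lower than the mean of the other 3, again with glomeruli (-2.65, SE 0.74, FDR 0.0204), which was lost without capillary 93 or 100 (FDR up to 0.0894). At FDR under 0.05 in either direction, the members numbered 2 of 8 in arterioles, 2 in glomeruli, 2 in capillaries and 0 in venules (also 0 at an unadjusted p under 0.05 in venules), where the shares of all genes were 11.3%, 3.79%, 7.22% and 0.550%. One of the members counted in glomeruli is Akr1b7, which passed the low-count filter there through its glomerular libraries alone. Agt, counted in capillaries, likewise entered that fit through its capillary libraries, and neither of these calls supports anything.

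By mean CPM, Ren1 in glomeruli was 113 times that in arterioles (arterioles minus glomeruli -6.83 on the log2 scale, FDR 1.56e-05), 67.1 times that in capillaries (6.07, FDR 3.38e-05) and 10.9 times that in venules (3.44, FDR 0.0259). Venules in turn exceeded arterioles (arterioles minus venules -3.39, FDR 0.0127). Arterioles and capillaries, neighbours at the low end, did not differ beyond their spread (-0.75, SE 0.77, FDR 0.572), and capillaries against venules missed the threshold (-2.63, FDR 0.187). The difference between glomeruli and venules was lost without glomerulus 96 or 100 or venule 93, 96 or 98 (FDR up to 0.110), and with RLE size factors (0.0505). That between arterioles and venules was lost without venule 100 (FDR 0.0699) and in a fit of the 8 libraries compared (0.263), and venule 96, at 3.27 CPM, lay within the range of the arterioles.

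Akr1b7 (ENSMUSG00000052131), an aldo-keto reductase known as a second marker of renin cells, lies on chromosome 6 from 34412334 to 34423142 of GRCm38, forward strand. Glomerular libraries held 82, 305, 257 and 156 counts, or 8.17, 33.5, 19.9 and 17.1 CPM. Whole kidney held 11, 18, 21 and 12 counts (1.11, 2.07, 1.43 and 1.13 CPM), so that the 2 groups did not overlap. Arteriole 93 held 2 counts, capillary 100 held 1 and venule 93 held 1, and the other 9 microdissected libraries outside the glomerulus held none. Summed over 4 libraries, the 800 glomerular counts per library total were 249 times the arteriolar 2 (95% exact counting interval 68.6 to 2056), 556 times the capillary count (99.5 to 21982) and 586 times the venular count (105 to 23160). The study's own quantitative RT-PCR, however, found Akr1b7 no different in glomeruli and arterioles.

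Against the other compartments the fit gave Akr1b7 a log2 fold change of 8.19 in glomeruli (SE 1.68, FDR 0.00204). In the fit of the 16 microdissected libraries the gene passed the filter on low counts through the glomerular libraries alone, so this value is a description and its call supports nothing. It was no marker under the rule because glomerulus 93 lay under 10 CPM. Against whole kidney its mean of 19.7 ± 10.5 CPM was 13.7 times as high, but with a log2 fold change of 3.77 and an SE of 1.94 it missed the threshold (FDR 0.362). DESeq2 called this difference (FDR 0.00242), as did the version 4 form of edgeR's test (0.0158) and a fit of the 8 libraries compared (0.00706). Akr1b7 belongs to a family of similar genes, and how reads that fit several genes were counted is not stated in the sources used here.

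Ren1 and Akr1b7 were alike over the 20 libraries (Pearson r 0.815 of log2(CPM + 1)), a description in which 4 glomerular libraries stand apart from the rest. The venule libraries with the most Ren1 did not follow: venules 93 and 100 held 149 and 207 CPM of Ren1, above all whole kidney libraries, and 0.112 and 0 CPM of Akr1b7. In the plot of Ren1 against Akr1b7 these libraries lie along the foot, to the right of whole kidney.

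**Figure D2:**
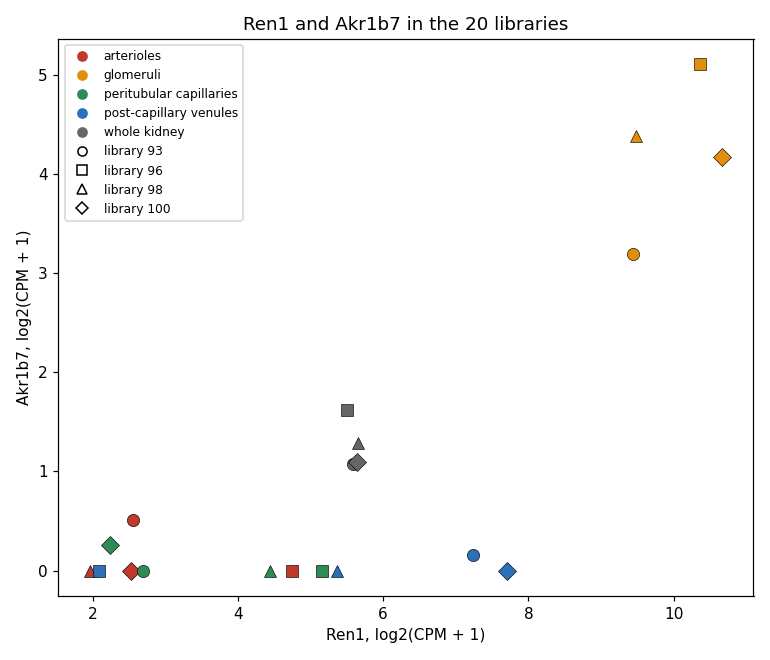
Ren1 against Akr1b7 in the 20 libraries, both as log2(CPM + 1), with a colour for each group and a symbol for each library number. The 4 glomerular libraries lie apart at the upper right, and venules 93 and 100 hold more Ren1 than whole kidney with 0.112 and 0 CPM of Akr1b7.

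The genes most like Ren1 over the 20 libraries were Acpp (r 0.926), Pcdh12 (r 0.911, a protocadherin) and Clic3 (r 0.908, a chloride channel family protein). Those most like Akr1b7 were Rab3b (r 0.979, a small GTPase of vesicle release), Wif1 (r 0.974, a secreted Wnt inhibitor) and Raver2 (r 0.972). These correlations share the same libraries and preparation and are given with no test.

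The stretches before the start sites of Ren1 and Akr1b7, whose glomerular libraries all lay above every other library, are shown beside that of Agt, which was lowest in arterioles and near 0 in glomeruli. Each run holds the 250 bases before the RefSeq start site on GRCm38.p6, written 5′ to 3′ on the gene's strand, with TATAAA in capitals. The GENCODE gene boundary of Ren1 given above and that of Akr1b7 lie inside these runs, since that annotation starts both genes earlier.
Ren1, chr1:133350424-133350673, forward: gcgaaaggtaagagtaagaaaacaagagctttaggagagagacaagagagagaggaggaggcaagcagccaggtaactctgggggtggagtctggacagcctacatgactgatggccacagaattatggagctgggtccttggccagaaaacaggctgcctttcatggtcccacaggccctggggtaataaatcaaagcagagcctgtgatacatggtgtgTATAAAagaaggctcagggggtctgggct
Akr1b7, chr6:34412112-34412361, forward: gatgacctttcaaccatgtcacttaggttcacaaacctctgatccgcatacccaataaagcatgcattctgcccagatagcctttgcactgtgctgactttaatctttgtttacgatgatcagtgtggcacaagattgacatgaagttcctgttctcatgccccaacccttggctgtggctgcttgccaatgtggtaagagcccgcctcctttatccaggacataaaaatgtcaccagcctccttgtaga
Agt, chr8:124569707-124569956, reverse: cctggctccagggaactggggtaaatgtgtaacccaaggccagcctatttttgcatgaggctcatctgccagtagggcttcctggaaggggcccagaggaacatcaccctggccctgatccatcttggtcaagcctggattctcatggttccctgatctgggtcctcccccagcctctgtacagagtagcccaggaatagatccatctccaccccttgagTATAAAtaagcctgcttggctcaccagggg
TATAAA began 29 bases before the start in Ren1 and 30 bases before it in Agt, and it was not found in the Akr1b7 window on either strand. In windows that ran on to 50 bases after the start, 13.6% of 32851 RefSeq windows held TATAAA on either strand. TGACG, which is part of a cAMP response element, was in 20.8% of windows, the full TGACGTCA in 1.79%, the Rbpj core TGGGAA in 25.6% and the GC box GGGCGG in 35.7%, and none of these 4 motifs was found in the windows of Ren1, Akr1b7 or Agt. TGACGTCA contains TGACG. Of the other members, Atp6ap2 held TGACG at 62 bases before the start, Ace held GGGCGG at 4 positions and TATAAA on the reverse strand, and Mme held GGGCGG in 3 of its windows. Atp6ap2 also held GGGCGG at 2 positions, Enpep held TATAAA on the reverse strand at 2 positions, and Agtr1b held TATAAA 31 bases before the start. RefSeq windows were matched for 8 of the 9 members (11 windows) and not for Agtr1a. A match of letters is a description, not a site.

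Angiotensinogen, the substrate of renin, is encoded by Agt (ENSMUSG00000031980) on chromosome 8 from 124556534 to 124569706, reverse strand. Peritubular capillaries held 26.5, 62.5, 18.8 and 109 CPM of Agt, and whole kidney 46.0, 37.5, 42.4 and 24.2 CPM. The 2 groups overlapped, and 54.2 ± 41.1 against 37.5 ± 9.52 CPM (SD, n = 4) gave a log2 fold change of 0.53 (SE 1.34, FDR 0.953). Arterioles held 0, 0.481, 0.558 and 0.531 CPM, 11 counts in all, where 3 counts in arteriole 93 would be 0.635 CPM. Whole kidney was 95.5 times as high, and the log2 fold change was -6.50 (SE 1.71, FDR 0.0115), a call that held without any 1 library (FDR up to 0.0330).

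In glomeruli Agt stood at 0.399, 0.330, 2.48 and 0.767 CPM, again under every whole kidney library, and whole kidney was 37.7 times as high by the mean. The fit gave -5.21 (SE 1.60, FDR 0.0644), which missed the threshold. DESeq2, the version 4 form of edgeR's test and a fit of the 8 libraries compared called it (FDR 8.16e-07, 0.00264 and 0.000878), and it also passed without any 1 arteriole library or without venule 100 (FDR down to 0.0300). Venules held 4.02, 0.848, 6.46 and 0.267 CPM, all under whole kidney (-3.69, SE 1.49, FDR 0.367). DESeq2 (FDR 0.00503) and a fit of the 8 libraries compared (0.0423) called this difference.

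Agt met the marker rule in peritubular capillaries (log2 fold change 5.66, SE 1.31, FDR 0.00415), also in all 16 fits that left out 1 library. It was 1 of 8 members to do so, where 3.24% of all genes did. In the fit of all 16 microdissected libraries, too few libraries outside capillaries held enough Agt counts for the filter on low counts. The gene entered this fit through its capillary libraries, so this value is a description and its call supports nothing. Arterioles and venules had 0 member markers, against 4.75% and 0.230% of all genes. In pairwise tests capillaries exceeded arterioles (arterioles minus capillaries -7.03, FDR 0.0334), which was lost without any 1 arteriole library or without capillary 96 or 100 (FDR up to 0.0865), with every gene of at least 1 count (0.0716) and in a fit of the 8 libraries compared (0.0502), while capillaries against glomeruli (FDR 0.107) and venules (FDR 0.383) missed the threshold. The pairwise tests use that same fit, so the call against arterioles is likewise a description and supports nothing. Arterioles, glomeruli and venules did not differ from one another beyond their spread (FDR 0.377 to 0.965). Over the 20 libraries Agt was most like Pzp (r 0.951, a protease inhibitor), Slc5a10 (r 0.926, a sugar cotransporter) and Slc51a (r 0.912, a subunit of an organic solute transporter). Of the 9 proximal tubule markers, 7 were called lower in arterioles, 7 lower in glomeruli, 2 higher in capillaries and 1 lower in venules. Agt is set against these markers as a ratio further on, and the part of the markers in the Agt differences was not tested.

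Angiotensin-converting enzyme, which is bound to endothelium and to the tubule brush border, is encoded by Ace (ENSMUSG00000020681) on chromosome 11 from 105967945 to 105989964, forward strand. Ace stood at 0.635, 177, 156 and 142 CPM in arterioles. Libraries 96, 98 and 100 lay above every library of the other groups, and arteriole 93 lay among the lowest. Peritubular capillaries held 21.4, 71.5, 102 and 56.2 CPM and whole kidney 43.8, 32.4, 45.3 and 39.7 CPM. Glomeruli (1.50, 0.550, 17.9 and 7.34 CPM) and venules (3.24, 3.51, 0.185 and 25.2 CPM) lay under every whole kidney library. Against whole kidney the log2 fold change was 1.57 in arterioles (SE 1.19, FDR 0.365), 0.64 in capillaries (FDR 0.933), -2.55 in glomeruli (FDR 0.310) and -2.32 in venules (FDR 0.600), so that none passed.

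Among the compartments Ace was higher in arterioles than the mean of the other 3 (log2 fold change 2.98, SE 0.97, FDR 0.0391), without being a marker, since arteriole 93 lay under 10 CPM. The test was passed in 5 of 16 fits that left out 1 library. It was lost without arteriole 96, 98 or 100, glomerulus 93, 96 or 100, capillary 93 or 96, or venule 93, 96 or 98 (FDR up to 0.0964). No pairwise difference in Ace passed. Its most similar genes were Akap1 (r 0.795), Atp2a2 (r 0.773, the calcium pump of the sarcoplasmic reticulum) and Tor1aip2 (r 0.756), looser matches than those of Ren1 or Agt. All 5 endothelial markers were called higher in arterioles, at 0.193 to 0.273% of counts, and 3 of 5 in glomeruli, at 0.109 to 0.147%, and in glomeruli Ace was among the lowest. Their part in the Ace levels was not tested.

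Agtr1a (ENSMUSG00000049115), on chromosome 13 from 30336441 to 30382867, forward strand, encodes the type 1 receptor through which angiotensin II constricts vessels. Glomeruli held 121, 83.6, 122 and 118 CPM and whole kidney 22.6, 14.9, 25.6 and 24.4 CPM. The groups did not overlap, and 111 ± 18.5 was 5.08 times 21.9 ± 4.80 CPM, but the difference missed the threshold (log2 fold change 2.35, SE 1.26, FDR 0.396). A fit of the 8 libraries compared gave FDR 0.000292. Arterioles held 11.0, 495, 0.335 and 0.885 CPM, and 97.6% of their summed CPM came from arteriole 96. The log2 fold change of 2.54 (SE 1.27, FDR 0.156) in arterioles turned to -2.43 without that library. Venules held 30.8, 0.484, 70.9 and 66.7 CPM and capillaries 39.8, 30.7, 5.23 and 12.5 CPM, both overlapping whole kidney (FDR 1.00 and 0.999). Mean levels ranked arterioles, glomeruli, venules, capillaries and whole kidney, and no neighbours in that order differed beyond their spread. The mesangial and pericyte markers, all 5 called higher in glomeruli and in arterioles, took 0.116 to 0.152% and 0.385 to 0.520% of counts there, against 0.0122 to 0.0151% in whole kidney, and their part in the Agtr1a levels was not tested.

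**Figure D3:**
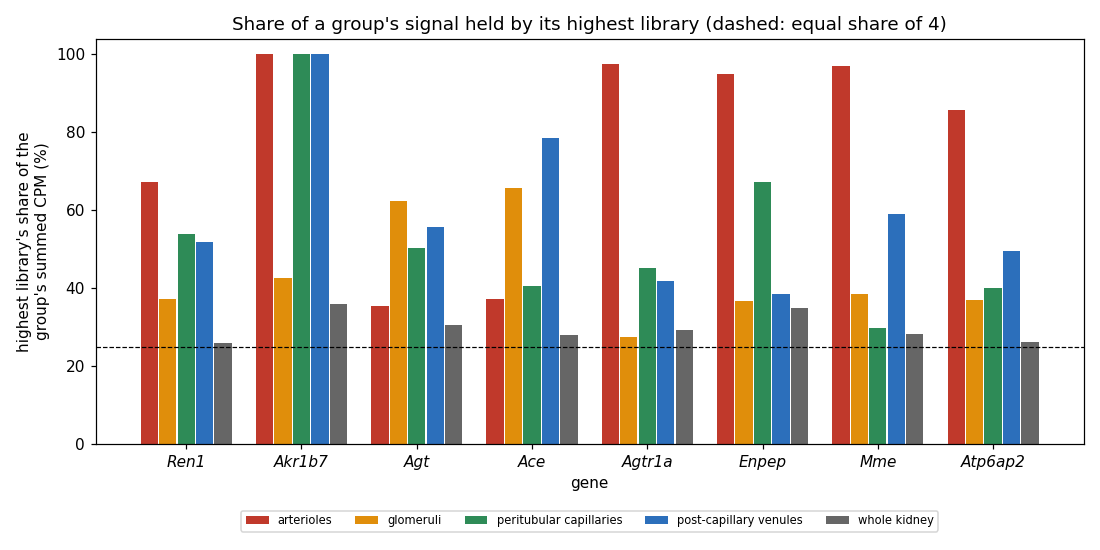
Share of each group's summed CPM that came from its highest library (bars, percent, 4 libraries a group), for each gene. In arterioles the share was 97.6% for Agtr1a, 94.9% for Enpep, 96.9% for Mme and 85.7% for Atp6ap2, while in whole kidney it lay between 26.0% for Ren1 and 36.0% for Akr1b7.

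Aminopeptidase A, which turns angiotensin II into angiotensin III, is encoded by Enpep (ENSMUSG00000028024) on chromosome 3 from 129269175 to 129332720, reverse strand. Glomeruli held 75.1, 151, 116 and 71.3 CPM, all above the 35.8, 14.9, 26.8 and 24.8 CPM of whole kidney. The mean was 4.05 times as high (103 ± 37.8 against 25.6 ± 8.54 CPM), with a log2 fold change of 2.02 (SE 1.32, FDR 0.565), and a fit of the 8 libraries compared gave FDR 0.00337. Against the other compartments it was 3.44 (SE 1.07, FDR 0.0640), which fell under 0.05 without arteriole 98 (FDR 0.00598) and without capillary 98. Arterioles held 0.847, 2.24, 70.7 and 0.708 CPM, with 94.9% of the sum from arteriole 98. Capillaries (6.32, 1.47, 16.9 and 0.390 CPM) lay mostly below whole kidney, and venules (11.5, 1.09, 10.3 and 6.94 CPM) all did, without passing the test (FDR 0.596 and 0.893). The genes most like Enpep were Alox12 (r 0.899, a lipoxygenase), Flrt2 (r 0.889) and Plat (r 0.867, tissue plasminogen activator).

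Neprilysin, which cuts angiotensin I to angiotensin 1-7, is encoded by Mme (ENSMUSG00000027820) on chromosome 3 from 63241537 to 63386030, forward strand. Its levels in glomeruli, capillaries and whole kidney lay close together. Glomeruli held 49.4, 53.7, 130 and 105 CPM, capillaries 73.4, 96.3, 86.9 and 65.9 CPM, and whole kidney 52.7, 63.4, 69.6 and 59.5 CPM. Venules were split, at 76.0, 4.60, 17.0 and 141 CPM. Arterioles held 1.27, 1.76 and 1.45 CPM in libraries 93, 96 and 98 and 142 CPM in library 100. No comparison of Mme passed with all libraries (against whole kidney, FDR 0.669 to 1.00). Without arteriole 100, Mme was lower in arterioles than in whole kidney (log2 fold change -5.34, FDR 0.00148).

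Atp6ap2 (ENSMUSG00000031007), on chromosome X from 12587801 to 12617049, forward strand, encodes the (pro)renin receptor, which is also a subunit of the proton-pumping ATPase of most cells. Whole kidney held 88.5, 95.1, 92.5 and 98.1 CPM. Venules held 84.9, 147, 148 and 373 CPM, with 3 libraries above all of whole kidney, at a mean 2.01 times as high that did not pass (log2 fold change 1.01, SE 0.87, FDR 0.972). Glomeruli (46.5, 65.8, 69.6 and 107 CPM) and capillaries (99.4, 87.1, 147 and 35.3 CPM) overlapped it. Arterioles held 1.27, 2.08, 23.9 and 163 CPM, and arteriole 100 was again the highest. Without it Atp6ap2 was lower in arterioles than in whole kidney (-3.35, FDR 0.0124), where the fit of all libraries gave -0.97 (FDR 0.457). Mme and Atp6ap2 were the most alike pair of members after Ren1 with Akr1b7 and Akr1b7 with Enpep (r 0.730, 0.815 and 0.743).

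**Figure D4:**
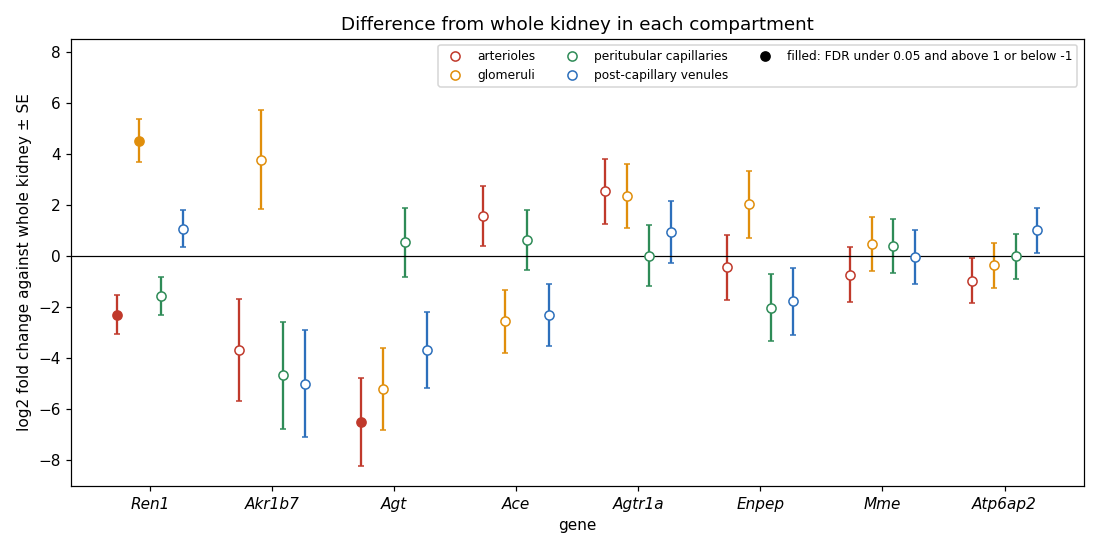
Log2 fold change against whole kidney (points, vertical axis) with its standard error (bars) for the 8 genes in the 4 compartments, from the fit of all 20 libraries. The filled points, Ren1 in glomeruli (4.52) and arterioles (-2.30) and Agt in arterioles (-6.50), passed the test.

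Over all 48 pairwise tests of a member between 2 compartments, 5 passed, of which 4 were in Ren1 and 1 in Agt. The Agt call, between arterioles and capillaries, is a description only, as stated above. The calls numbered 1 of 8 members for each of arterioles against glomeruli (2.19% of all genes), arterioles against capillaries (11.2%), arterioles against venules (4.38%), glomeruli against capillaries (4.49%) and glomeruli against venules (1.22%). Between capillaries and venules edgeR called 0 of 8 members and 0.411% of all genes, with 3 members at an unadjusted p under 0.05 and 1 called by DESeq2. Scaling by RLE in place of TMM moved the median of all genes by 0.17 in arterioles against whole kidney and by 0.24 in arterioles against the other compartments.

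Agt, Ace, Enpep and Mme are known from the proximal tubule, so their levels were also set against the summed CPM of the 9 proximal tubule markers in the same library, as a log2 ratio with 1 CPM added to both. Per tubule marker mRNA, Agt was lower than in whole kidney in arterioles (-2.95), glomeruli (-1.74) and venules (-3.08), each in 4 of 4 libraries (exact two-sided permutation p 0.0286, n = 4 each, the smallest this test can give). In capillaries the difference was -1.03 (exact p 0.143). By this ratio Enpep was higher in glomeruli (4.57) and lower in capillaries (-3.73). The Mme ratio was also higher in glomeruli (2.95) and lower in capillaries (-0.88). Each of these differences held in 4 of 4 libraries (exact p 0.0286, n = 4 each). The mean CPM of Mme itself was 1.38 times whole kidney in glomeruli and 1.31 times in capillaries. The markers' mean share of counts was 0.740% in glomeruli, 7.13% in capillaries and 4.12% in whole kidney. No Ace ratio reached that p (exact p 0.0571 to 0.600, n = 4 each), with 3 of 4 arteriole libraries above whole kidney. Over the 16 tests these 7 had a Benjamini-Hochberg value of 0.0653, so none passed after adjustment. With 0.1 CPM added in place of 1, the same 7 reached that exact p, and the Agt differences were -4.71 in arterioles, -2.85 in glomeruli and -3.85 in venules, so the amount added sets their size where Agt was near 1 CPM or less. The set changed when Kap was left out of the marker sum. Mme in capillaries then had an exact p of 0.0571, while Ace (-3.27) and Enpep (-2.09) in venules reached 0.0286. Their Benjamini-Hochberg value was 0.0571, so they did not pass after adjustment either.

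**Figure D5:**
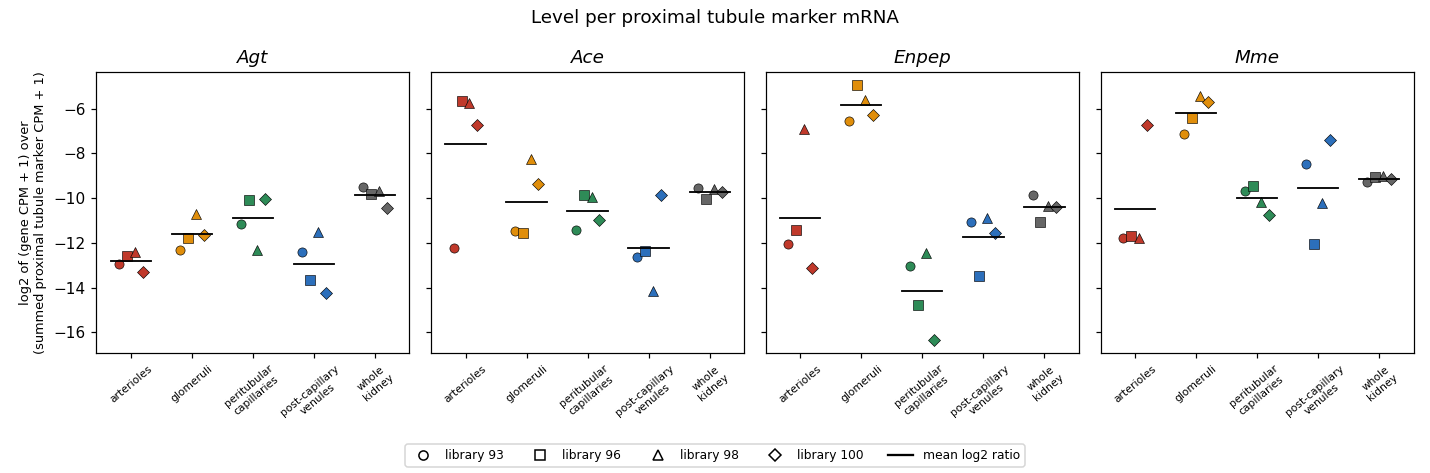
Log2 ratio of Agt, Ace, Enpep and Mme to the summed CPM of 9 proximal tubule markers, with 1 CPM added to both, in each library by group (points, with lines at the mean of 4 libraries). All 4 glomerular libraries lay above whole kidney for Enpep and Mme, and below it for Agt.

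The further angiotensin peptidases and receptors were counted as a list of 17 genes, of which 11 were tested against whole kidney. In arterioles 0 were called higher and 2 lower, where 5.78% and 5.50% of all genes were, and in the other 3 compartments none was called either way by edgeR. Agtrap, which binds the type 1 receptor and promotes its uptake into the cell, stood at 1.48, 2.08, 11.6 and 1.59 CPM in arterioles and at 66.6, 73.0, 68.8 and 71.4 CPM in whole kidney (log2 fold change -4.04, SE 0.86, FDR 0.00156). Nln, the peptidase neurolysin, was found in 1 arteriole library only, with 4 counts (FDR 0.0386), against 16.9 to 22.6 CPM in whole kidney. Thop1, a related peptidase, stood at 4.17 to 6.87 CPM in whole kidney and at 0.121 CPM or less in venules (FDR 0.293). Lnpep, an angiotensin IV-binding aminopeptidase, stood at 48.3, 123, 97.3 and 241 CPM in arterioles against 19.1 to 32.2 CPM (FDR 0.0847). The type 2 receptor gene Agtr2 had 0 counts in all 20 libraries.

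Genes of renin release and of the renin cell were called higher in arterioles for 8 of 25 tested and in glomeruli for 3, and lower in 0, against shares of all genes of 5.78% higher and 5.50% lower in arterioles and 1.59% and 1.47% in glomeruli. Adcy5, an adenylyl cyclase that makes the cAMP which drives renin release, stood at 379, 156, 372 and 434 CPM in arterioles and at 3.48 to 5.66 CPM in whole kidney (FDR 2.16e-05). Prkg2, the cyclic GMP-dependent kinase type II, known to restrain renin release, stood at 389, 575, 98.4 and 164 CPM against 1.01 to 2.26 CPM (FDR 0.000377). Itgb1, the integrin beta 1 chain, rose in arterioles (FDR 2.17e-06) and in glomeruli (FDR 0.000147), and Nfix, a transcription factor, rose in arterioles (FDR 0.000401). Both groups of libraries in which these genes rose also held more smooth muscle or mesangial marker mRNA, as given above, and their part was not tested. In arterioles, where Adcy5 and Prkg2 were high, Ren1 was at its lowest. Glomeruli, where Ren1 was highest, held mean Adcy5 and Prkg2 at 2.61 and 7.36 times whole kidney. There 2 of 4 libraries for Adcy5 and 4 of 4 for Prkg2 lay above all whole kidney libraries.

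Genes that act after angiotensin II and aldosterone were called in both directions in arterioles, with 5 of 19 higher and 3 lower, where 5.78% and 5.50% of all genes were. In glomeruli 3 were higher and 0 lower (1.59% and 1.47% of all genes), and in venules 1 was higher (0.203%). Rgs5, an inhibitor of G protein signalling in mural cells and also one of the mesangial and pericyte markers used here, stood at 5983, 6499, 3789 and 3926 CPM in arterioles against 36.8 to 52.9 CPM in whole kidney (FDR 5.31e-14). Rgs2, another such inhibitor, rose in arterioles (FDR 0.0102) and glomeruli (FDR 0.0126), and so did Arrb1, a beta-arrestin (FDR 0.00306 and 0.00698). Slc12a3, the thiazide-sensitive cotransporter of the distal tubule, fell in arterioles (FDR 0.00744). It is itself 1 of the 5 distal nephron markers (loop of Henle, distal tubule, collecting duct), of which 3 were called lower in arterioles and 2 in glomeruli, and their part in its level was not tested. Of the kallikrein and kinin genes, 4 of 7 were tested. Klk1, tissue kallikrein, rose in venules, from 1616 to 2132 CPM in whole kidney to 5499 to 8823 CPM (log2 fold change 1.99, FDR 0.00116). Its mean was also 2.63 times that of whole kidney in capillaries and 1.78 times in arterioles, without a call, and 0.492 times in glomeruli. Of the distal nephron markers, Calb1 (978 against 342 CPM) and Slc12a3 (399 against 233 CPM) had higher means in venules than in whole kidney. Umod, Slc12a1 and Aqp2 had lower ones. The part of these markers in the Klk1 level was not tested. Klk1 has many near-identical paralogs, between which reads can be split. Cpm, a carboxypeptidase, fell in arterioles to 0.558 to 0.847 CPM from 32.9 to 45.0 CPM (FDR 0.000832). Kng2, a kininogen (smallest FDR 0.349), and Cpn1, a carboxypeptidase subunit (0.877), were not called.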

How the data were processed

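The authors deposited raw read counts per gene, with no normalization, of QuantSeq 3′ mRNA libraries, made by alignment with STAR to GRCm38.p6 and counting with htseq-count. Neither strand setting nor molecular identifiers were stated in the sources used here. Opposite-strand neighbours of Ace, Akr1b7 and Enpep, the latter 2 processed pseudogenes, held 0, 0 and 2 counts, and a same-strand neighbour inside an intron of Agtr1a has no row in the table used here. Versions named in the submitters' processing notes include STAR 2.7 and HTSeq 0.13. Of 168 columns, 20 were used and 148 were not. Columns were assigned to groups by header and letter; nothing ties their numbers to labelled replicates, and same-numbered libraries did not deviate together (r -0.046 to 0.063). No libraries were identical.

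Counts were fitted in R 4.3.3 with edgeR 4.0.16 (TMM, filterByExpr, quasi-likelihood F test, version 3 form), with all 20 libraries for whole kidney and 16 for the compartments, and tested on simulated data first. SEs were derived from the F values. Permutation tests used scipy 1.17.1. Coordinates are of GENCODE M21. All members were named; from each other list, up to 4 genes with the smallest p against whole kidney, and Agtr2, which was named after its values were seen. Some items are not reported here. The members, lists and tests were chosen with earlier results of these data known. Alternatives were RLE scaling, other filters, DESeq2 1.42.0, a replicate block, fits of 8 libraries and leaving out each library; the version 4 edgeR test and an unscaled CPM minimum were added after seeing the data.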

Additional observations from a re-analysis of the deposited data

Results flagged for a closer look

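In 40 groups of 4 libraries, 11 held a library far from the other 3 by Dixon's criterion, where chance gives about 1 in 20 for normally distributed values, which CPM near a count of 0 are not. In arterioles, Ren1, Agtr1a, Enpep, Mme, Atp6ap2, Agt and Akr1b7 did, the last of which is given below. Ren1 stood at 25.8 CPM in arteriole 96, against 2.90 to 4.87 CPM in the others. Agtr1a stood at 495 CPM in the same library, against 0.335 to 11.0 CPM. Enpep stood at 70.7 CPM in arteriole 98, against 0.708 to 2.24 CPM. Mme and Atp6ap2 stood at 142 and 163 CPM in arteriole 100, against 1.27 to 1.76 CPM and 1.27 to 23.9 CPM. Agt was at 0 CPM in arteriole 93, against 0.481 to 0.558 CPM, where 3 counts in arteriole 93 are worth 0.635 CPM.

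Akr1b7 was found in a single library of each of 3 groups, at 0.423 CPM in arteriole 93, 0.195 CPM in capillary 100 and 0.112 CPM in venule 93, from 2, 1 and 1 counts, all under the level of 3 counts. Ace stood at 25.2 CPM in venule 100, against 0.185 to 3.51 CPM. Agtr1a in glomerulus 96, at 83.6 CPM, was low against 118 to 122 CPM in the others.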

How the results depend on the processing

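No call was reversed in 2826 settings of single member results: 2665 kept their side of the threshold, 63 passed it and 98 lost it, and 60 changed sign while uncalled. The cause of the changes was not tested. Of 3 member calls against whole kidney, DESeq2 made 8, edgeR's version 4 test 5 and fits of the 8 libraries compared 10. In glomeruli they made 3, 3 and 5 in place of 1, in capillaries DESeq2 and the 8-library fit made 1 each in place of 0, and in venules 2 each in place of 0. RLE scaling left 1 of 2 in arterioles. Glomerular markers numbered 2 in place of 1 with every gene of at least 1 count, independent filtering, DESeq2, the replicate block, the version 4 test or an unscaled 10 CPM minimum. Under the unscaled minimum the added gene was Akr1b7, whose call supports nothing, as stated above. Pairwise calls numbered 14 with DESeq2, 12 with version 4 and 8 with 8-library fits, in place of 5. For arterioles and glomeruli they were 3 with DESeq2 and 2 with version 4. For arterioles and capillaries they were 0 with every gene and with 8 libraries. For arterioles and venules they were 2 with DESeq2, 2 with version 4 and 0 with 8 libraries. For glomeruli and capillaries they were 4, 5 and 4 in that order, and for glomeruli and venules 3, 2 and 3, with 0 under RLE. For capillaries and venules, every gene, independent filtering and DESeq2 gave 1 in place of 0. Other listed genes called in glomeruli numbered 10 with independent filtering, 12 with DESeq2, 12 with version 4 and 21 with 8 libraries, in place of 6. In capillaries they numbered 2 with every gene, 2 with independent filtering, 3 with DESeq2, 1 with the replicate block, 1 with version 4 and 6 with 8 libraries, in place of 0. In venules they numbered 5 with DESeq2 and 6 with 8 libraries, in place of 2.

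Leaving out each library gave 2 to 5 calls against whole kidney, 1 to 3 in arterioles and 1 to 2 in glomeruli. Markers ran from 2 to 3, with 0 to 1 in arterioles and 1 to 2 in glomeruli. Pairwise calls ran from 4 to 9, with 1 to 2 for arterioles and glomeruli, 0 to 2 for arterioles and capillaries, 0 to 3 for arterioles and venules and 0 to 1 for glomeruli and venules. Other listed genes ran from 12 to 23 in arterioles (19 with all libraries), 4 to 9 in glomeruli, 0 to 1 in capillaries and 1 to 2 in venules. The tubule ratios at an exact p under 0.05 ran from 0 to 6 of 16, in place of 7, because 3 libraries against 4 cannot reach that p. Same-numbered libraries correlated no better (median r 0.006) than others (-0.002), and beyond the marker and list counts given above the replicate block moved no count of calls by over 1.5 times. The low-count alternative for members that the filter removed was not run, since no analysed member was removed.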
